A study of Homo sapiens with 6 samples.

Results

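The lines described here are 3 monoclonal lines of K562, a human cell line from a chronic myeloid leukemia, each stably carrying the empty expression vector pEF1a. They are the 3 samples that the labels name as pEF1a replicates, out of 6 arrays in the series, and they served the study as the controls for lines that carry the Pu.2 cDNA. The plasmid was delivered by electroporation, cells were selected with puromycin at 2 µg/mL and single clones were grown out, so each line is 1 clone and all 3 share the vector and the drug. The sample labels give an insect cell medium at 24 °C with 10% serum for these cells, whereas the study's methods give RPMI medium for K562. For each line 1 Human Gene 1.0 ST array (Affymetrix) was hybridized with total RNA, and the deposited values are on a log2 scale. Of 33297 probe sets, the 19460 that carry 1 gene symbol were described here, and with the brightest probe set taken for each of 769 genes with several they gave 18417 genes.

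K562 cells carry the Philadelphia translocation, which joins BCR on chromosome 22 to ABL1 on chromosome 9 into a constantly active tyrosine kinase that drives growth through the RAS, PI3K and STAT5 pathways. The line sits near the branch between red cell and platelet precursors. It makes embryonic and fetal rather than adult hemoglobin, and it is known to lack CDKN2A and neighbouring genes on the short arm of chromosome 9.

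A gene was called on in a line where its value lay above a silent level. This was the 95th percentile of 476 genes of 4 families taken as silent: olfactory receptors, bitter taste receptors, beta defensins and keratin associated proteins. This silent level was 6.85, 6.62 and 6.66 on the arrays of vector lines 1, 2 and 3. By it 5052 of the 18417 genes (27.4%) were on in every line, 12053 (65.4%) were off in every line and 1312 (7.12%) were on in some lines only. A gene called off did not exceed that level, which does not show that its transcript was absent. Off genes could still lie far above the families' median of 3.88, and 20 of the 476 were themselves on in every line. The order of genes is an order of array signal, which mixes the amount of a transcript with how well its probes bind. The median value over all probe sets was 5.42, 5.31 and 5.30 on the 3 arrays. The keratin associated proteins lay above the other families, with a median of 5.19 against 3.81 for the olfactory receptors, and with olfactory receptors alone 7390 genes (40.1%) were on. Since each line was measured on a single array, the spread between clones and the spread from RNA handling cannot be told apart, and precision is limited by the number of arrays. Line 3 stood out by its large differences, with 642 genes apart by 1 or more on the log2 scale between lines 1 and 3 and 390 between lines 2 and 3, against 88 between lines 1 and 2. Over all genes it did not: the median absolute difference was 0.17 between lines 2 and 3, 0.19 between lines 1 and 2 and 0.25 between lines 1 and 3. Without line 3, 5284 genes were on in both remaining lines.

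**Figure D1:**
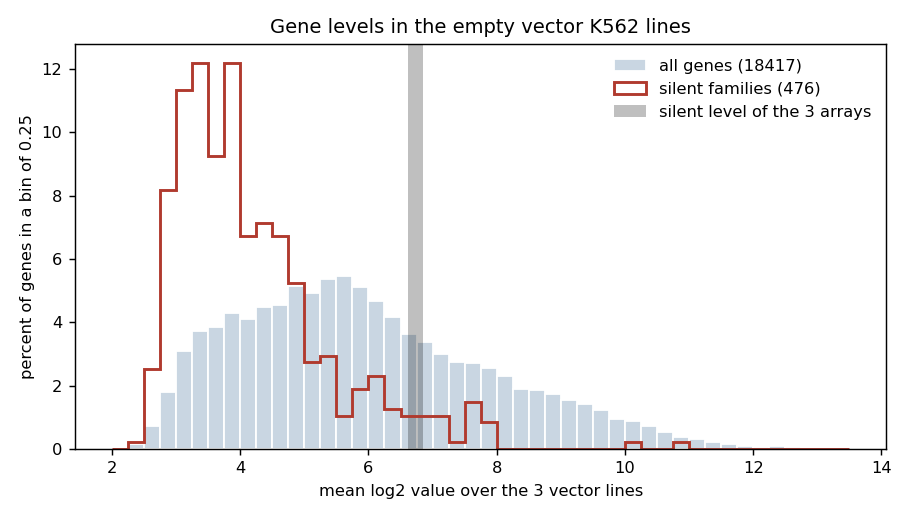
Mean log2 value over the 3 vector lines (x axis) against the percent of genes in each bin of 0.25 (y axis), for all 18417 genes as bars and for the 476 genes of the silent families as a red outline. The grey band spans the silent levels of the 3 arrays, from 6.62 to 6.85, above which a minority of the genes lie.

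Embryonic and fetal globin genes were among the brightest of the lines, whereas the adult beta-globin gene was off. HBE1, the embryonic epsilon-globin, had log2 values of 12.28, 12.61 and 12.89 in lines 1, 2 and 3, which put it at rank 10 of all genes with a mean of 12.59 ± 0.31 (SD, n = 3 lines). HBZ, the embryonic zeta-globin, had values of 10.85, 10.27 and 10.62. The shared probe sets of HBG1 and HBG2, which encode fetal gamma-globin, read 11.95, 12.09 and 12.18, and those shared by HBA1 and HBA2, the alpha-globin genes, read 9.97, 9.57 and 9.57. All of these lay far above the silent level in every line. HBB, the adult beta-globin, read 5.24, 5.26 and 4.87, below the silent level in each line. HBD, the minor adult delta-globin, lay at 6.03, 6.70 and 6.80, close to that level, and was above it in lines 2 and 3 only. HBQ1, HBM and AHSP, the chaperone of free alpha-globin, were off, with means of 6.55, 5.61 and 4.53. Of the 7 genes of the globin list with a probe set of their own, 2 were thus on in every line (28.6%, beside 27.4% of all genes), 1 in some and 4 in none, with a list median of 6.51 beside 5.67 over all genes.

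Among 20 transcription factors and cofactors of red cell precursors, 9 were on in every line, 5 in some and 6 in none, so 45.0% were on beside 27.4% of all genes. The median of the list was 6.80 beside 5.67 over all genes. MYB, which keeps progenitors dividing, was the brightest with values of 10.87, 11.13 and 10.70. KLF3, a repressor of the Krüppel-like family, read 9.34, 9.28 and 9.20, and KLF1, the activator of adult red cell genes from the same family, read 7.07, 7.04 and 7.26. KLF3 thus gave a steady, clear signal in every line, while KLF1 lay a little above the silent level. GATA1, the central factor of red cell and platelet precursors, read 7.89, 7.84 and 7.66. LDB1, an adaptor in the GATA1 complex, had a mean of 9.06 ± 0.17, and NFE2, a factor for globin and platelet genes, had a mean of 8.76 ± 0.20 (SD, n = 3 lines). TAL1, the partner of GATA1 in that complex, lay at 6.49, 6.90 and 6.98 and was above the silent level in 2 of 3 lines. LMO2, which bridges the complex, EPOR, the erythropoietin receptor, and BCL11A, the repressor of fetal globin, were off with means of 5.97, 6.10 and 3.81. HEMGN, a nuclear protein of early red cell precursors, differed most in this list, with values of 8.29, 8.74 and 10.56, a range of 4.83-fold in which line 3 was the high one. Many of these factors lie near the silent level, so the count depends on it: 5 of 20 were on above the 99th percentile of the silent families and 15 of 20 above the level of the olfactory receptors alone.

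Of 11 measured genes of heme synthesis, 5 were on in every line (45.5%, beside 27.4% of all genes), 2 in some and 4 in none, and the list median was 7.03. UROD, an enzyme of the middle of the pathway, had a mean of 9.91 ± 0.06, and SLC25A37, which imports iron into mitochondria, one of 8.91 ± 0.19 (SD, n = 3 lines). ALAS2, the enzyme of the first step in red cells, read 6.45, 5.60 and 6.47, below the silent level in each line. FECH, which inserts iron in the last step, read 6.68, 6.39 and 8.04, and CPOX, an enzyme of a late step, read 5.23, 6.11 and 7.12. UROS, the enzyme before UROD, read 7.67, 7.46 and 8.55. Line 3 was the highest in FECH, CPOX and UROS, and FECH and CPOX passed the silent level in line 3 alone. Of 10 genes of iron handling, 5 were on in every line, 2 in some and 3 in none, with a list median of 7.64. TFRC, the transferrin receptor, read 10.91, 11.22 and 11.43, and FTL, the ferritin light chain, had a mean of 10.56 ± 0.25. CYBRD1, an iron reductase, read 6.97, 6.61 and 8.43 and again was highest in line 3.

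In the list of red cell membrane and blood group genes, 6 of 20 measured members were on in every line, 3 in some and 11 in none, which is close to the 27.4% on among all genes, and the list median was 6.27 beside 5.67. RHAG, which carries the Rh antigens to the membrane, was the brightest with values of 11.02, 11.24 and 11.31. EPB41, the skeletal protein 4.1, and TMOD1, which caps actin filaments, had means of 9.83 ± 0.10 and 9.55 ± 0.31. RHD, the D antigen, read 8.62, 8.61 and 9.06, and RHCE, its close paralog, read 6.63, 6.60 and 6.80 near the silent level, where probes of such alike genes may share signal. SLC4A1, the anion exchanger band 3, and AQP1, a water channel, were off with means of 4.58 and 4.45.

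The sequences below are the stretches from 250 bases before to 50 bases after the transcription start of 4 of these genes, from RefSeq on GRCh38.p14, where a promoter was found for 14237 of the 18417 genes. They show the brightest of the named genes, a red cell gene that was on and a red cell gene that was off. The last is a gene of the run of off genes on chromosome 9 described further on. Capitals mark matches on either strand to AGATAA, the core bound by GATA factors, CACCC, a box bound by Krüppel-like factors, and the general promoter motifs CCAAT and TATAAA, where matches of CACCC may overlap each other.
RPS25: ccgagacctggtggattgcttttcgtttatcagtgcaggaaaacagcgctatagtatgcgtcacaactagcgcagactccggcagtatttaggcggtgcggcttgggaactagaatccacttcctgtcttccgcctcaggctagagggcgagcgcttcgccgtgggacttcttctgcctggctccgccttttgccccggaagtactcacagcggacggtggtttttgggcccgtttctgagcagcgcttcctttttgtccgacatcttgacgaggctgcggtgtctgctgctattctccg
RHD: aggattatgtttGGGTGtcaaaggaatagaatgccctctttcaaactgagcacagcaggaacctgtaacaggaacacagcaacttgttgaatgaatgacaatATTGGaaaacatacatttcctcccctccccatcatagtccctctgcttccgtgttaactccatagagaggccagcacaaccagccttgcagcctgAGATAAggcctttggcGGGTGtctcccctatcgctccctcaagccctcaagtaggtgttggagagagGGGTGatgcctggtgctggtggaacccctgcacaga
ALAS2: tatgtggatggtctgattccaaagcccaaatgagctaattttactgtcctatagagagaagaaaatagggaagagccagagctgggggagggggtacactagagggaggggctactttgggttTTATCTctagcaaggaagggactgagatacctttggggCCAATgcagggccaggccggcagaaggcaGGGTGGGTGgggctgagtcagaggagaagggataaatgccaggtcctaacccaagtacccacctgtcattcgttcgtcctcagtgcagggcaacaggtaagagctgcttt
MTAP: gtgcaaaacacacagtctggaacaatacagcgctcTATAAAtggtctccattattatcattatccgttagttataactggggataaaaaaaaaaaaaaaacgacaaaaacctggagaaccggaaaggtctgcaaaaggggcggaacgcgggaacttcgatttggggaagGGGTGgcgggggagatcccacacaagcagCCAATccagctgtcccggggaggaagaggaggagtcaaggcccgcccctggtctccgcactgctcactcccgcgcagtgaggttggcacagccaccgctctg
RPS25 lies at chr11:119018294-119018593 on the minus strand, RHD at chr1:25272236-25272535 on the plus strand, ALAS2 at chrX:55030928-55031227 on the minus strand and MTAP at chr9:21802386-21802685 on the plus strand. The window of RPS25 held none of the 4 motifs and 23 CpG dinucleotides. The window of RHD held AGATAA 53 bases before the start, with CACCC on the opposite strand 37 bases before and 14 bases after it, and 3 CpG dinucleotides. The window of ALAS2 held AGATAA on the opposite strand 127 bases before the start and overlapping CACCC matches 60 and 56 bases before it. The window of MTAP held TATAAA 215 bases before the start and no AGATAA. A match describes the letters of a window and says nothing of binding in these cells.

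AGATAA occurred in 7.59% of all promoters. It was in 38.5% of the 26 promoters found for the globin, heme and red cell membrane lists (10 promoters), in 4.63% of the genes on in every line, in 1.74% of the 172 promoters found for the 200 brightest genes and in 30.1% of those of the silent families. Among the globins only HBD and HBM had a promoter here, and HBE1, HBZ and HBB had none. The median GC content was 56.5% in the 26, 39.0% in the silent families and 63.0% over all promoters, and its part in these shares was not tested. Of the 10 red cell genes with a match, RHD and KEL, the Kell antigen, were on in every line, 4 in some lines and 4 in none. Of all 26 red cell genes with a promoter, 8 were on in every line, 6 in some and 12 in none. RHAG, the brightest membrane gene, had no match in its window. CACCC occurred in 62.7% of all promoters and in 76.9% of the red cell ones. TATAAA was in 5.64% of the promoters of genes on in every line and in 10.98% of those off in every line. The median number of CpG dinucleotides was 27 in promoters of genes on in every line, 18 in those off in every line and 1 in those of the silent families.

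Of 361 olfactory receptor genes, which encode odorant sensors of the nose, 8 were on in every vector line, beside 27.4% of all genes. These receptors are most of the 476 genes whose 95th percentile is the silent level. By that definition only a small share of the 476 could lie above it on any array. Of the 8, 4 lie in a row of genes beside HBE1 on chromosome 11. OR51B4, the measured gene next to HBE1, read 9.87, 9.37 and 10.92. OR52D1, the brightest of all olfactory receptors, read 10.45, 10.69 and 11.39. These values were far above those of the family, whose median was 3.81, and line 3 was highest in both. OR51B5 had a mean of 7.90 and OR51B2 one of 6.86, while OR51I2 read 6.89, 6.52 and 8.22 and was on in lines 1 and 3. OR51B6, OR51M1, OR51Q1 and OR51I1, which lie between them, were off, with means from 5.95 to 6.39 that still lay above the family's median. On the far side of HBB an unbroken run of 33 off genes, from OR52B4 to HBB itself, had a median of 4.04, and 84.8% of its genes belonged to the silent families. The arrays do not tell receptor transcripts from longer transcripts that run through the receptor genes.

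Most listed genes of the other blood lineages were off in every line, as were 65.4% of all genes. Of 19 megakaryocyte and platelet genes 0 were on in every line (beside 27.4% of all genes), 2 in some and 17 in none. Their median was 4.41 beside 5.67 over all genes. By the level of the olfactory receptors alone, 3 of the 19 were on. GP6, the platelet collagen receptor, read 7.55, 7.43 and 6.45, and TUBB1, the platelet tubulin, read 6.35, 6.48 and 6.97. ITGA2B and ITGB3, the chains of the fibrinogen receptor, PF4, platelet factor 4, and FLI1, a factor of this lineage, were off with means of 4.81, 4.10, 4.41 and 3.82. RAB27B, a granule transport protein, read 3.88, 6.14 and 3.75, with line 2 the high one although below the silent level. Of 24 monocyte and macrophage genes, CD68, a lysosomal protein, was the 1 gene on in every line, with a mean of 7.01 ± 0.27 beside a list median of 4.29. SPI1, which encodes the myeloid factor PU.1, read 6.32, 6.05 and 6.12, below the silent level in every line, and LYZ, lysozyme, read 6.72, 6.58 and 5.71. FCGR2A, a receptor for immunoglobulin, read 8.86, 9.34 and 4.14, high in lines 1 and 2 and off in line 3. SPI1 lay above the level of the olfactory receptors alone, so its call rests on that choice.

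Of 20 granulocyte genes, MS4A3, a surface protein of early granulocytes and basophils, was the 1 gene on, with values of 10.32, 8.55 and 8.25 that were highest in line 1, beside a list median of 4.78. The granule protein genes ELANE, PRTN3, AZU1 and MPO were off with means of 6.39, 6.23, 5.56 and 4.29. Of 10 mast cell and basophil genes GATA2 was on, with a mean of 7.14 ± 0.25, and KIT, the stem cell factor receptor, was off with a mean of 4.41. RUNX1, a factor of blood stem cells and precursors, had a mean of 7.81 ± 0.27. MECOM, a stem cell factor and leukemia gene, read 6.80, 7.40 and 8.20 and was above the silent level in lines 2 and 3. Its other probe set had a mean of 3.91, so that call rests on the brighter one. CD34 was off with a mean of 4.56. Of 32 lymphocyte genes 0 were on in every line and 30 were off in every line, beside 27.4% and 65.4% of all genes. Their median was 4.70. CD7, an early T cell antigen, and CD3D, a chain of the T cell receptor complex, were the 2 that lay above the level in some lines, with means of 6.83 and 6.60. Without line 3, 1 megakaryocyte gene, 2 monocyte genes and 1 T and NK lymphocyte gene were on in both remaining lines.

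Lists of other tissues held 62 measured genes, of which 4 were on in every line, 3 in some and 55 in none. Over all genes 27.4% were on and 65.4% were off in every line. The median of the 62 was 4.65. The 4 were epithelial: EPCAM, a cell adhesion protein, read 10.99, 10.92 and 10.85, and the keratins KRT18, KRT8 and KRT19 had means of 8.12, 7.65 and 7.11. EPCAM had several probe sets, whose average was 10.21. CDH1, the cadherin that defines epithelium, was off with a mean of 3.92. The liver genes ALB, AFP and APOA1 were off with means of 3.12, 3.17 and 5.89. Of 51 genes of the endothelium, fibroblast, liver, neuron and muscle lists, 0 were on in every line. PECAM1, an adhesion protein of endothelium and platelets, read 6.34, 6.53 and 7.59, and GAD1, the enzyme that makes the transmitter GABA, read 6.36, 6.98 and 4.41, so line 3 was high in the former and low in the latter. The other probe set of PECAM1 had a mean of 2.71.

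Of 16 measured genes of the BCR-ABL1 pathway 14 were on in every line (87.5%, beside 27.4% of all genes), 1 in some and 1 in none, and their median was 7.96 beside 5.67. Most lay not far above the silent level, so that 10 of 16 were on with the families other than olfactory receptors and 4 of 16 above the 99th percentile of all silent families. ABL1 read 9.26, 9.07 and 8.34 and BCR read 6.94, 6.86 and 6.34, both lowest in line 3. SOS1, the RAS activator, CRKL, an adaptor phosphorylated by the kinase, and MYC had means of 9.61 ± 0.22, 9.04 ± 0.12 and 9.43 ± 0.11 (SD, n = 3 lines). GAB2, the adaptor that links the kinase to PI3K, read 9.10, 8.73 and 7.46, and BCL2L1, a survival gene downstream of STAT5, read 8.49, 8.54 and 7.50, again lowest in line 3. STAT5A and STAT5B were steady, with means of 7.07 ± 0.07 and 7.75 ± 0.04. CISH, a feedback inhibitor of STAT5, was off with a mean of 6.15. The array probes do not tell the fusion transcript from those of the separate genes.

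Cell cycle genes were on in every line in 22 of 25 cases (88.0%, beside 27.4% of all genes), with a median of 9.29 beside 5.67 over all genes. TYMS, the enzyme that makes thymidylate for DNA, read 11.57, 11.56 and 11.59, and RRM1, TOP2A and CCNA2, which serve DNA synthesis and mitosis, had means of 10.71, 10.46 and 10.42. CCNE1, a cyclin of the entry into S phase, read 6.47, 7.42 and 7.83 and was off in line 1. Of 8 cell cycle inhibitors and checkpoint genes, MDM2, RBL1, RB1 and CDKN1B were on, with means of 9.35, 8.88, 8.45 and 6.97. RBL2, CDKN1C, CDKN2D and CDKN1A were off, with means of 6.55, 6.43, 5.92 and 5.58.

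Of 8 genes listed for the region deleted in K562 on chromosome 9, 7 were measured. All 7 were off in every line, beside 65.4% of all genes. MTAP, which salvages methionine, read 3.66, 3.47 and 3.55. CDKN2A, which encodes the inhibitors p16 and ARF, read 4.98, 4.12 and 4.23, and CDKN2B, its neighbour, read 4.70, 4.75 and 4.71. They lay in a run of 25 consecutive off genes from MLLT3 to LINC03106, which also holds the interferon alpha cluster with IFNB1 at 2.94 and IFNE at 2.75, KLHL9 at 4.41 and DMRTA1 at 4.85. The median of the run was 3.45 and its highest mean was 4.97, whereas the median of all off genes was 4.84. RPS6, a ribosomal protein gene on one side of the run, and PLAA on the other read 12.66 and 8.20 on average. Long runs of off genes were not rare: of 3660 runs, 11 were at least as long, and 5 of these had a median at or below that of this run, this run included. The others included runs of olfactory receptors and the imprinted runs from SNORD116-16 to SNORD115-48 and from MEG3 to DIO3. Off values on their own do not tell a deleted gene from one that is not transcribed.

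Of 10 genes of MHC class I and antigen loading 3 were on in every line, 2 in some and 5 in none, with a median of 6.31. Their share on, 30.0%, was close to the 27.4% of all genes. CANX, CALR and B2M, the chaperones and the light chain of MHC class I, were on with means of 11.28, 10.28 and 9.22. The probe sets shared by HLA-B and HLA-C were off, with means from 5.44 to 5.52, as were TAP1, the peptide transporter, at 5.01 and PSMB8, an immunoproteasome subunit, at 3.83. Of 9 MHC class II genes 0 were on, with a median of 4.34, and CIITA, their activator, had a mean of 4.90. Of 13 cancer-testis antigens, which are normally used in germ cells, 3 were on in every line, 3 in some and 7 in none. This share on, 23.1%, was also near that of all genes, and the list median was 5.44. PRAME read 10.26, 10.53 and 10.55, CTCFL, the germline relative of CTCF, had a mean of 9.64 ± 0.37 and PAGE5 one of 8.72 ± 0.18. A probe set shared by several GAGE genes averaged 12.04.

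Genes of protein synthesis were common among the brightest. RPS25, a ribosomal protein gene, had the highest mean among genes with a probe set of 1 symbol, 13.22 ± 0.03 (SD, n = 3 lines), with values of 13.26, 13.21 and 13.20. RPS20, RPS24, RPS6, RPL5 and RPS15A, also ribosomal, EEF1A1, a translation elongation factor, and NACA, which binds new chains, were among the 15 highest, with means from 12.47 to 12.83. The others were TCP1 and HSPA8, which fold proteins, PTMA and NPM1, which act in the nucleus, ODC1, the first enzyme of polyamine synthesis, HBE1 and FAF2, a protein of the endoplasmic reticulum. FAF2 stands at rank 2 with 12.90, but its other probe set gave 8.25. The dimmest probe sets of NPM1, PTMA and RPL5 gave 4.05, 4.54 and 8.59. Among the 200 brightest genes, whose means ran from 10.93 to 13.22, 32 were ribosomal protein genes, a family that makes up 0.364% of all genes. Of 67 ribosomal protein genes 60 were on, with a median of 10.78. Another 12 of the 200 were translation factors (0.337% of all genes) and 6 were heterogeneous nuclear ribonucleoproteins (0.109%), which package pre-mRNA. A further 6 belonged to the respiratory chain and ATP synthase (0.505% of all genes) and 6 were heat shock proteins (0.147%). Of 19 housekeeping genes 18 were on (94.7%, beside 27.4% of all genes), and PPIA, a peptidyl-prolyl isomerase, was the other, with values of 6.51, 7.17 and 7.45.

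The spread between lines differed with level. Over all genes the median SD between lines was 0.17, with a 95th percentile of 0.49. The median SD ran from 0.12 in the dimmest bin of genes to 0.22 in a bin near 8, and was 0.19 in the brightest. A range of 1 or more between the lines, which is 2-fold, was found in 764 genes (4.15%). Of the 200 brightest genes 1 had such a range, and their median SD was 0.12. The genes on in every line with the lowest SD were RPS18P9, DDX42, RAP1B, PRPF3 and MSL2, each with an SD of 0.01 or less. Of the 764, 227 were on in every line, 278 in some and 259 in none, so 21.2% of the genes on in some lines were variable, beside 4.49% of those on and 2.15% of those off. A gene that is on in some lines only must cross the level, which bears on that share.

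The variable genes were examined for the line that differed. A line was said to stand apart where its gap to the nearer of the others was at least 3 times the gap between those. Among the 764 variable genes this was line 3 in 278 cases (149 high, 129 low), line 1 in 52, line 2 in 20 and no line in 414. Over all 18417 genes, most of which differ little, it was line 1 in 3587 (19.5%), line 3 in 3036 (16.5%) and line 2 in 1667 (9.05%). Without line 3, 88 genes had a range of 1 or more. Among the 20 genes with the largest SD, which were chosen by it, line 3 was low in 11 and high in 5.

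SSX1, a cancer-testis antigen, differed most: it read 4.49 and 5.18 in lines 1 and 2 and 11.91 in line 3, a range of 171-fold. Its relative SSX3 read 3.63, 4.22 and 6.47, and MAGEC1, another antigen of this class, read 4.24, 3.80 and 6.17. Both were highest in line 3 but below the silent level. HSD17B12, a fatty acid elongation enzyme, read 3.12, 2.54 and 7.77. ALDH1A1, which makes retinoic acid, read 4.45, 3.90 and 8.98. CA2, the red cell carbonic anhydrase, read 4.09, 3.47 and 8.35, and CA1, its isozyme, read 5.19, 4.73 and 8.35. MID1, a ubiquitin ligase of microtubules, read 3.72, 3.36 and 7.02. The genes from HSD17B12 to MID1 were off in lines 1 and 2 and on in line 3.

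Other genes, several of them known from white cell surfaces and signalling, were low in line 3. PTPRC, the leukocyte common antigen CD45, read 9.51, 9.88 and 4.08, a range of 55.8-fold, and FCGR2A a range of 36.7-fold. CD44, the receptor for hyaluronan, read 9.42, 9.41 and 4.97, and CD69, an activation antigen, read 9.10, 9.45 and 4.91. LCP2, an adaptor of immune receptors, read 9.28, 9.89 and 6.19, and LAPTM5, a lysosomal protein of blood cells, read 8.43, 9.65 and 5.97. GPR183, an oxysterol receptor of immune cells, read 8.98, 8.91 and 6.24. All 7 were on in lines 1 and 2 and off in line 3, and all were picked by their values, 5 for a large SD and LAPTM5 and GPR183 for this pattern. The lists of white cell genes were off in every line for most members, as given above. IGF1, insulin-like growth factor 1, read 9.43, 9.60 and 3.86, and CERS6, a ceramide synthase, read 9.25, 9.63 and 5.17. CALB1, the calcium buffer calbindin, read 11.33, 11.74 and 6.92 and was the 1 gene of these 20 that was on in every line. VEPH1, MUC19 and SCN9A, a sodium channel, were low in line 3 too, with values there of 3.67, 4.09 and 3.41.

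Some of the 20 did not set line 3 apart. SCG3, a protein of secretory granules, read 5.36, 9.08 and 3.08, and BRINP3, a gene of neurons, read 5.47, 7.89 and 3.60. MAEL, a germ cell protein that helps silence transposons, read 3.23, 7.04 and 2.95. These 3 were on in line 2 alone. ZNF730, a zinc finger protein, read 7.18, 4.71 and 8.71 and was off in line 2 alone.

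ABL1 lay in a stretch of genes that mostly read lower in line 3. Over 25 neighbouring genes that were on in every line, the deviation of each gene from its mean over the 3 lines was summarised by its median. The lowest such window of line 3 in the genome ran from TOR1A to TUBB4B on chromosome 9 and holds ABL1, with a median deviation of -0.42. The lowest window of line 3 on any other chromosome was at -0.23. Windows of such depth occurred in line 1, whose lowest, on chromosome 14, was at -0.52. The median over all windows was -0.15 in line 1 and 0.12 in line 3. In the chromosome 9 window line 3 was the lowest in 23 of the 25 genes (92.0%), beside 28.6% of all 5047 genes so placed. ABO, the blood group glycosyltransferase, read 7.73, 7.57 and 6.71, SURF4, a cargo receptor, read 7.94, 8.01 and 7.15, and TSC1, an inhibitor of growth signalling, read 7.65, 7.82 and 7.04. NUP214, a nuclear pore protein, read 11.70, 11.77 and 11.44. GFI1B, a repressor of red cell and platelet precursors, was an exception with values of 7.10, 6.73 and 6.99. FAM78A, which lies near ABL1 and was on in lines 2 and 3 only, is outside the window and was highest there, with values of 6.20, 6.64 and 7.11. On chromosome 22 the lowest window of line 3, from CCT8L2 to PPIL2, ended before BCR and had a median deviation of -0.21, with line 3 lowest in 19 of 25 genes. Windows on chromosomes 17, 6 and 19 lay as low or lower, at -0.23, -0.23 and -0.21. Line 3 also lay a little lower over all the genes on in every line of chromosomes 19 and 22, with median deviations of -0.10 and -0.07, and their part in these windows was not tested. The window was picked as the lowest, so its size is a description.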

How the data were processed

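The authors hybridized total RNA of the 3 empty vector lines, ran Expression Console on the arrays and deposited a log2 value for every probe set. Its algorithm, version, library and scan dates were not given in the sources used here. Whatever normalization it applied can change the spread between arrays.

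From the deposited values, probe sets were named through the platform's annotation: of 33297, 1754 carried several symbols and 12083 were unnamed here. Of 19460 single symbols, 19429 were found in the gene table of GRCh38.p14, which gave gene order, and 0 changed. The brightest probe set stood for each of 769 genes with several, 131 of which had probe sets apart by over 2 on the log2 scale. Means, SDs over 3 lines, ranks and levels against the silent families were computed with Python 3.11.15, numpy 2.4.6 and pandas 2.3.3, and figures drawn with matplotlib 3.10.9. Simulated data were used to test the steps. With 1 group there was no test, and lists are given by counts, most with their median, to be read beside the 27.4% on and the median of 5.67 over all genes.

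The members and the 26 lists were chosen with earlier results of these data known. Named genes were the 15 brightest, the 20 with the largest SD, the 5 steadiest that were on, up to 4 brightest members and the most variable member of each list, all members of lists with 8 or fewer measured, and the globins and leukemia genes in any case. The other named genes, the families among the 200 brightest, the 25-gene windows, the neighbours of the globin genes and the 4 promoters were chosen after values were seen. Alternatives were each line left out, centring, quantile normalization, other silent levels and families, a filter on low genes, other rules for genes with several probe sets, and the mean of linear values.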

Additional observations from a re-analysis of the deposited data

How the results depend on the processing

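With 3 arrays of 1 group these values describe the lines and carry no test. No paired analysis was possible because a single group was described and no comparison was made. The count of genes on in every line was 5052 and fell to 2525 with the 99th percentile of the silent families and to 3323 with the families other than olfactory receptors, and it was 9758 with the median of each array as the level, which left 7225 genes off instead of 12053. Leaving out each line in turn, 742 to 1031 genes were on in some lines instead of 1312, 88 to 641 had a range of 1 or more instead of 764 (the brightest probe set was chosen again on the lines left), 5083 to 5566 were on, 12109 to 12303 were off and the median SD was 0.12 to 0.18. The number without line 3, 88, was the lowest of these ranges. With genes on in at least 1 line, 505 had such a range, with each array centred 1007 and after quantile normalization 740. Of 286 counts of list members on under the alternatives, 51 moved by more than 1.5 times, most of them with the silent level, and 48 list members, SPI1, EPOR and TAL1 among them, were on in every line by the level of the olfactory receptors alone but not by that of all 4 families. Means of genes that line 3 sets apart rest on it: without line 3 the mean of PTPRC was 9.70 instead of 7.82 and that of SSX1 4.83 instead of 7.19. RPS25, FAF2 and EPCAM fell to 12.51, 10.57 and 10.21 with the mean of their probe sets.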

Other observations

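Small nucleolar RNAs, which guide chemical marks onto ribosomal and spliceosomal RNA, differed between the vector lines. Of 145 such genes 36 were on in every line, a share near the 27.4% of all genes. A range of 1 or more on the log2 scale was found in 31 of the 145, beside 4.15% of all genes. Among those 31, line 3 was the highest in 30 and line 1 the lowest in 28, and their median values were 6.38, 6.86 and 7.56 in lines 1, 2 and 3. Over all 145, which were not picked for their range, line 3 was the highest in 82 (56.6%, beside 30.3% of all genes) and line 1 the lowest in 76, with medians of 5.74, 5.77 and 6.01. SNORD44 read 7.95, 9.19 and 9.95, SNORA33 read 7.53, 8.23 and 9.62, and SNORD50A read 7.27, 7.71 and 9.12. Over the 764 variable genes line 3 was the highest in 465 and line 1 the lowest in 383, whereas over all 18417 genes line 1 was the highest in 8695 and line 3 the lowest in 7690. A part of RNA handling in this order was not tested.

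By kind of gene, 29.1% of 16901 protein coding genes were on in every line, 5.85% of 632 long noncoding RNAs and 2.31% of 173 microRNA genes, whose probes read precursors. By chromosome the share on ran from 16.4% on chromosome 19 to 33.1% on chromosome 5. Median deviations of the lines from their mean also differed by chromosome: line 1 lay at 0.12 on chromosome 19 and -0.30 on chromosome 13, where line 3 lay at -0.10 and 0.29. Among probe sets with no gene name here, 2397 of 12083 (19.8%) were on in every line, beside 27.5% of the 19460 with 1 symbol. A range of 1 or more was found in 1289 of the 12083 unnamed ones and in 810 of the 19460.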
